A study of Mus musculus with 6 samples.

Results

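The Fos and Jun family of transcription factors was measured in the cortex of HtrA2 knockout mice, which lack a protease that resides between the membranes of mitochondria. The members were Fos, Fosb, Fosl1, Fosl2, Jun, Junb and Jund, taken as every probe set of the array that the platform annotation gives to 1 of these symbols alone. This gave 11 of the 45037 probe sets tested, for 7 of 18193 named genes. Fosl1, Fosl2, Jun and Jund had 2 probe sets each, and Fos, Fosb and Junb had 1 each.

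Proteins of this family pair through a leucine zipper to form AP-1, a factor that binds short DNA elements in promoters and enhancers. Jun proteins can pair with each other or with Fos proteins, whereas Fos proteins need a Jun partner. In cortical neurons, Fos, Fosb and Junb are immediate early genes that synaptic activity switches on within minutes through calcium and ERK signalling to SRF and CREB, while Jund is expressed steadily. Jun is in addition a target of the stress kinase JNK, which phosphorylates the Jun protein.

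The tested mice were HtrA2 knockouts (HtrA2 KO, 3 arrays) and the comparison was with wild type mice (WT, 3 arrays) that were their littermates. All were at postnatal day 29, and total RNA of cortex tissue was hybridised to an Affymetrix expression array with biotin label. No treatment beyond the genotype is given, and strain, sex and litter are not stated in the labels. Whether the arrays stand for separate animals is not stated in the labels, and p-values therefore measure the spread between these samples alone, which may be in part technical. The question of the series is which transcripts differ in a cortical region where the submitters saw no loss of neurons. Levels are log2 values from RMA, ± is an SD for a group mean and a standard error for a difference, with n = 3 in each group, and differences are HtrA2 KO minus WT. Unless an array is left out or a term added, all tests come from 1 limma fit, with p-values adjusted over 45037 probe sets by the Benjamini-Hochberg method, and a probe set was called at an adjusted p under 0.05.

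The arrays had nearly equal medians, all within 6.397 to 6.455. HtrA2 KO replicate 2 had the narrowest range between quartiles, 4.90 to 8.54, and lay farthest from the other arrays of its group. Htra2 fell by 2.27 ± 0.17 at probe set 1460495_s_at (limma adjusted p = 0.00227) and rose by 1.11 ± 0.08 at 1436269_s_at (limma adjusted p = 0.00169). The position of these probes in the gene, inside or outside the deletion, is not known here, and the probe set that rose therefore does not check the labels. Each group held 1 array with high Xist, the X-inactivation transcript, and low Eif2s3y, a Y-linked gene. HtrA2 KO replicate 3 had an Xist level of 11.01 and WT replicate 1 had 10.90, while the other 4 arrays lay between 6.16 and 7.003. Neuronal markers were high on every array, with all 13 measured members above the median of the table. Ttr, the marker of choroid plexus, set both the groups and 1 array apart at probe set 1454608_x_at. It had 6.82, 6.13 and 5.68 in HtrA2 KO replicates 1 to 3, against 8.65, 13.73 and 9.23 in WT replicates 1 to 3 (limma adjusted p = 0.110). All HtrA2 KO arrays lay below all WT arrays, and WT replicate 2 stood far above the rest. Where 1.67% of all genes had a probe set called lower and 1.64% one called higher, 0 of the 11 markers of blood vessels and meninges were called. Their mean level was 8.54, 8.41 and 8.72 in HtrA2 KO replicates 1 to 3, against 8.25, 8.18 and 8.39 in WT replicates 1 to 3, so that HtrA2 KO replicate 3 was the highest.

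No member of the family passed the test. Of the 11 member probe sets 0 were called lower and 0 higher, where 1.77% of all probe sets were called, 0.884% lower and 0.884% higher. At an unadjusted limma p under 0.05, 3 member probe sets lay lower in HtrA2 KO, those of Fos, Junb and 1 of Jun, which is 27.3% of the members against 8.55% of all probe sets. At 0 member probe sets all HtrA2 KO arrays lay above all WT arrays, against 11.6% of all probe sets. At 4 member probe sets they lay below all WT arrays, also against 11.6% of all probe sets. These 4 belong to Fos, Junb and Jun, and counted by gene, at the probe set with the highest mean, they were 3 of 7 genes (42.9%, against 12.8% of all genes). The other 7 member probe sets overlapped between the groups. The median difference of the 7 genes at that probe set was -0.21, and that of all genes was 0.018. In whole cortex, fewer cells of a type and less RNA per cell cannot be told apart.

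**Figure D1:**
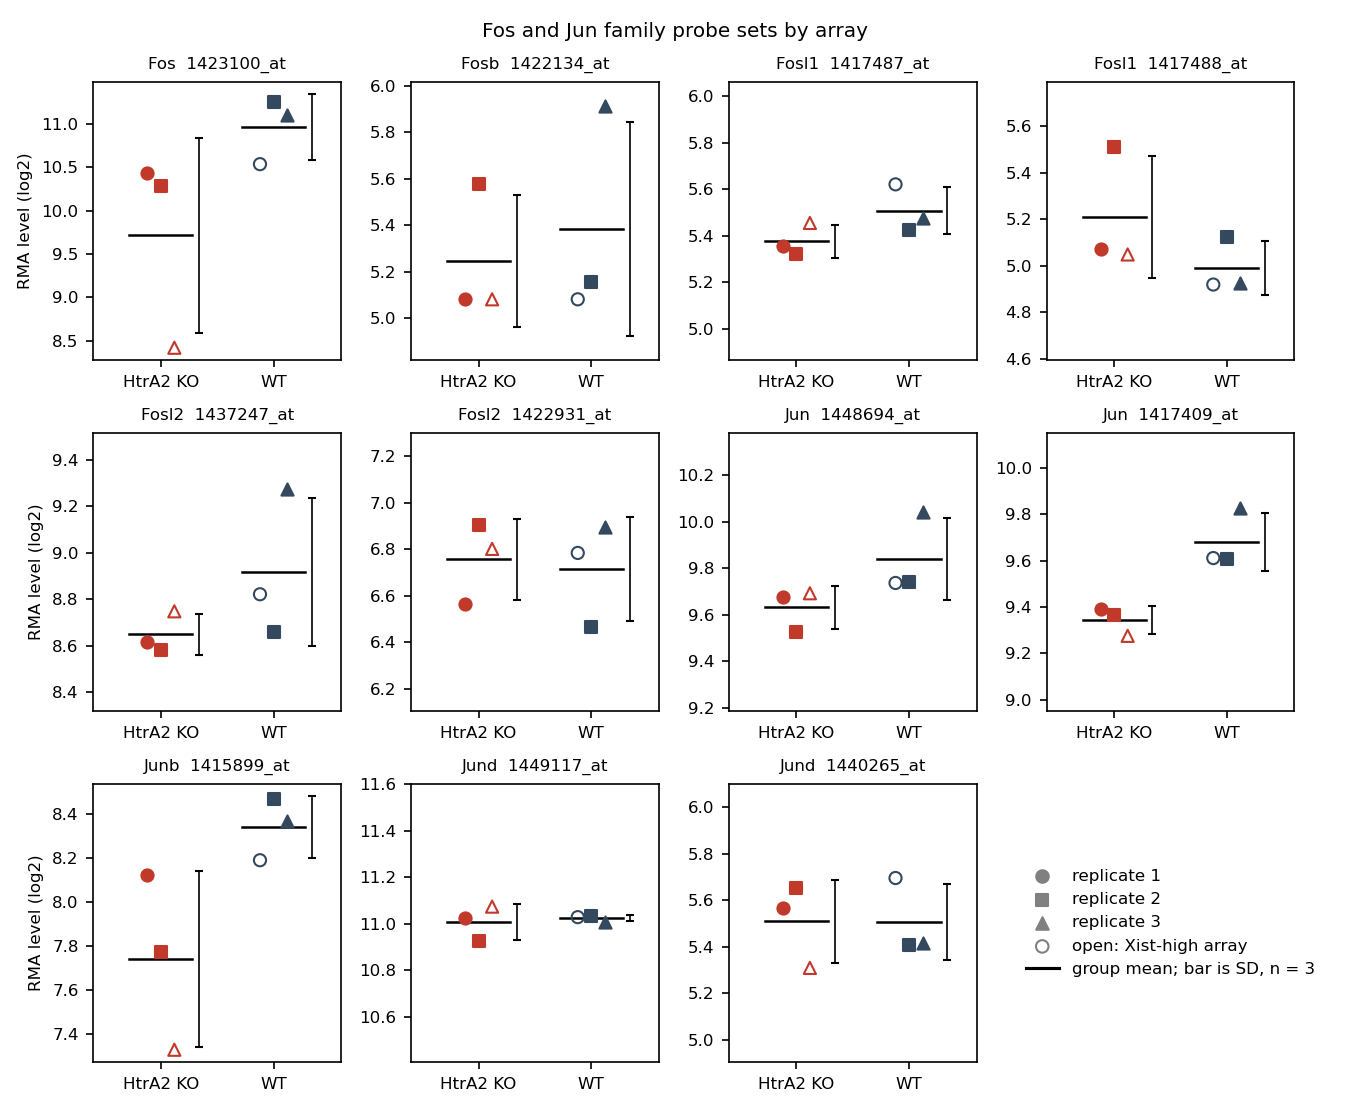
RMA level (log2, vertical axis) of each of the 11 Fos and Jun family probe sets on each array, with HtrA2 KO on the left and WT on the right of each panel. Lines are group means, bars are SDs (n = 3) and open symbols are the arrays with high Xist. The lowest Fos value, 8.42, and the lowest Junb value, 7.33, both come from HtrA2 KO replicate 3, while the groups overlap at Jund.

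Fos, the partner that gives AP-1 its rapid response to stimulation, had the widest difference of the family. Its levels were 10.44, 10.29 and 8.42 in HtrA2 KO replicates 1, 2 and 3, against 10.53, 11.25 and 11.09 in WT replicates 1, 2 and 3. All HtrA2 KO arrays lay below all WT arrays, but the gap between the nearest arrays was only 0.096, and HtrA2 KO replicate 3 stood far below the rest. Fos averaged 9.72 ± 1.12 in HtrA2 KO and 10.96 ± 0.38 in WT, a difference of -1.25 ± 0.49 or a 2.37-fold lower level (95% interval of the difference -2.37 to -0.12, limma adjusted p = 0.246). The spread among the HtrA2 KO arrays was exceeded at 12 of all 45037 probe sets, and the spread among the WT arrays at 228. Without HtrA2 KO replicate 3 the difference was -0.60 ± 0.20 (limma adjusted p = 0.286).

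The Xist-high array was the lowest for Fos within each group. Between the Xist-high arrays the difference in Fos was -2.11, with 8.42 in HtrA2 KO replicate 3 and 10.53 in WT replicate 1, 1 array against 1 and therefore without a test. Among the Xist-low arrays Fos averaged 10.36 in HtrA2 KO and 11.17 in WT (2 arrays each), a difference of -0.81 ± 0.12 (limma adjusted p = 0.238). When the Eif2s3y level was added to the fit, the difference over all 6 arrays was -1.34 ± 0.25 (limma adjusted p = 0.0645). HtrA2 KO replicate 3 was also the array with the highest markers of vessels and meninges, and WT replicate 2, the highest for Fos, was the array with the highest Ttr. The part of these tissues in the Fos values was not tested. Fos was lower by 1.10 ± 0.57 in HtrA2 KO when WT replicate 2 was left out (limma adjusted p = 0.566).

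Junb, a Jun protein that is itself induced by activity and pairs with Fos, had a smaller difference than Fos. Its levels were 8.12, 7.77 and 7.33 in HtrA2 KO replicates 1 to 3, against 8.19, 8.47 and 8.37 in WT replicates 1 to 3. The groups did not overlap, HtrA2 KO replicate 1 lay 0.065 below the lowest WT array, and the Xist-high array was again the lowest in each group. Junb averaged 7.74 ± 0.40 in HtrA2 KO and 8.34 ± 0.14 in WT, a difference of -0.60 ± 0.18 or a 1.51-fold lower level (95% interval -1.02 to -0.17, limma adjusted p = 0.150). Without HtrA2 KO replicate 3 the difference was -0.39 ± 0.13 (limma adjusted p = 0.287). It was -0.47 among the Xist-low arrays and -0.86 between the Xist-high arrays.

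Jun, the founding member and the substrate of JNK, had smaller differences with less spread. At probe set 1417409_at its levels were 9.39, 9.37 and 9.28 in HtrA2 KO replicates 1 to 3, against 9.61, 9.61 and 9.83 in WT replicates 1 to 3. The groups were 0.21 apart at their nearest arrays, the widest gap of any member, and with any 1 array left out the difference lay between -0.37 and -0.26. The means were 9.34 ± 0.06 in HtrA2 KO and 9.68 ± 0.13 in WT, a difference of -0.34 ± 0.09 or a 1.26-fold lower level (95% interval -0.54 to -0.14, limma adjusted p = 0.101). At the other probe set, 1448694_at, levels were 9.68, 9.53 and 9.69 in HtrA2 KO replicates 1 to 3, against 9.74, 9.74 and 10.04 in WT replicates 1 to 3. The groups there were also separate, by 0.044, and WT replicate 3 was the highest array. That difference was -0.21 ± 0.10 (95% interval -0.45 to 0.03, limma adjusted p = 0.368), and it was -0.11 ± 0.09 without WT replicate 3. Within the Xist-low arrays Jun differed by -0.34 at 1417409_at and by -0.29 at 1448694_at, and between the Xist-high arrays by -0.33 and -0.044 in the same order.

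**Figure D2:**
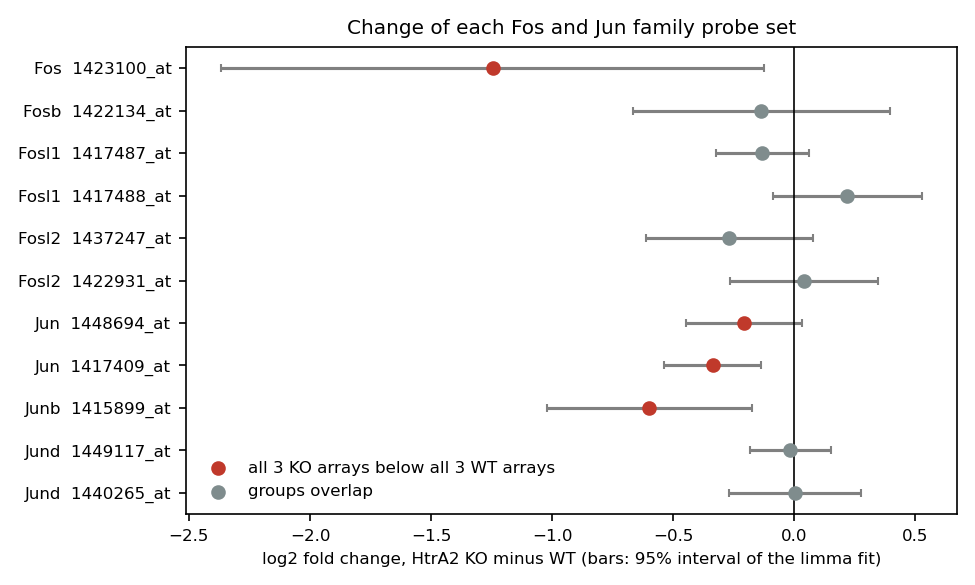
Log2 fold change of each member probe set, HtrA2 KO minus WT (horizontal axis), with the 95% interval of the limma fit before adjustment over all probe sets. Intervals of Fos (-2.37 to -0.12), Junb (-1.02 to -0.17) and Jun 1417409_at (-0.54 to -0.14) lie below 0, and those of the other 8 probe sets include 0.

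The promoters of Fos, Junb and Jun are shown because these were the 3 genes whose HtrA2 KO arrays all lay below the WT arrays. In RefSeq on build GRCm38.p6, the Fos gene lies at chr12:85473890-85477274, Junb at chr8:84976909-84978748 and Jun at chr4:95049036-95052222. Each sequence is the 250 bases before the gene's start on that build, read 5′ to 3′ on the gene's strand. Capitals mark motif matches on either strand. The motif TGACGT is the core of the cAMP response element, to which CREB binds. The motif TGACATCA is an AP-1-like element described in Jun promoters. The motif TATAAA is the TATA box.
Fos (chr12:85473640-85473889, plus strand): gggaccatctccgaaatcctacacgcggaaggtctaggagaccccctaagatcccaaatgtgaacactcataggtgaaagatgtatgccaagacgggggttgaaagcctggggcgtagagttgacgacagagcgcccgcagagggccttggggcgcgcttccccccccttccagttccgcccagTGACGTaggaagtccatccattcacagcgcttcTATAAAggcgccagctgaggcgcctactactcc
Junb (chr8:84978749-84978998, minus strand): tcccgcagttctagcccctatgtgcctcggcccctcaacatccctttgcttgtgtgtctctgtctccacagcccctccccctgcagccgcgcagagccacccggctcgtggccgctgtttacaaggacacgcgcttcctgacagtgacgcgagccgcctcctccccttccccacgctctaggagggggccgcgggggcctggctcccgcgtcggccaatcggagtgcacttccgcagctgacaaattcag
Jun (chr4:95052223-95052472, minus strand): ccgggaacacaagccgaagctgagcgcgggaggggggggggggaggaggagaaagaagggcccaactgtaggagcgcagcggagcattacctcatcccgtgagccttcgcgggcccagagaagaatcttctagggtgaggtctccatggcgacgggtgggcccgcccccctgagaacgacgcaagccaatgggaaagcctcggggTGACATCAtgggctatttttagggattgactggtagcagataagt

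The Fos window held TGACGT from 66 to 61 bases before the start and TATAAA from 33 to 28 bases before it. The Jun window held TGACATCA from 45 to 38 bases before the start. The Junb window held none of the 6 motifs searched, which also included the whole cAMP response element TGACGTCA, the AP-1 site TGANTCA and the CArG box, to which SRF binds. Among 32851 windows of this length, TGACGT was found in 6.47%, TGACATCA in 2.93%, TATAAA in 12.4%, TGACGTCA in 1.55%, TGANTCA in 6.75% and the CArG box in 1.47%. TGACGTCA contains TGACGT, so these matches overlap. The windows of Fosl2 and Jund held none of the motifs, and no window was read for Fosl1. The window of Fosb held none either, but it was set from a start that lies inside the annotated gene, so part of it is gene sequence. The Fos, Junb and Jun windows held 15, 20 and 15 CpG dinucleotides, those of Fosb and Fosl2 19 and 23 and that of Jund 3, against a median of 6 in all windows. A match here is a run of letters and was not tested for binding.

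Jund, the Jun protein that is expressed steadily and restrains growth in several tissues, did not pass the test, and its interval was narrow. At probe set 1449117_at its levels were 11.02, 10.92 and 11.07 in HtrA2 KO replicates 1 to 3, against 11.03, 11.03 and 11.01 in WT replicates 1 to 3. The groups overlapped, and the difference of -0.016 ± 0.073 had a 95% interval of -0.18 to 0.15 (limma adjusted p = 0.945), which corresponds to a level in HtrA2 KO between 0.880 and 1.11 times that of WT. The other probe set, 1440265_at, lay below every array's median, at 5.31 to 5.65 in HtrA2 KO and 5.41 to 5.70 in WT, and differed by 0.0033 ± 0.12 (95% interval -0.27 to 0.28).

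Fosb, whose truncated form ΔFosB is known to build up in neurons under repeated stimulation, was dim on this array. Its levels were 5.08, 5.58 and 5.08 in HtrA2 KO replicates 1 to 3, against 5.08, 5.15 and 5.92 in WT replicates 1 to 3. In each group 1 array stood above the rest, replicate 2 in HtrA2 KO and replicate 3 in WT, and the groups overlapped over most of their range. The means were 5.25 ± 0.28 in HtrA2 KO and 5.38 ± 0.46 in WT, a difference of -0.14 ± 0.23 (95% interval -0.67 to 0.39, limma adjusted p = 0.833). Without WT replicate 3 the difference was 0.13 ± 0.16, the opposite direction. As background, RMA compresses differences among dim probe sets.

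Fosl2, which encodes Fra-2, gave unlike values at its probe sets. At 1437247_at levels were 8.62, 8.58 and 8.75 in HtrA2 KO replicates 1 to 3, against 8.82, 8.66 and 9.27 in WT replicates 1 to 3. The groups overlapped through WT replicate 2, and WT replicate 3 was the highest, as it was for Fosb and for both probe sets of Jun. The difference was -0.27 ± 0.15 (95% interval -0.61 to 0.08, limma adjusted p = 0.426), and -0.091 ± 0.099 without WT replicate 3. At 1422931_at levels ran from 6.57 to 6.91 in HtrA2 KO and from 6.47 to 6.90 in WT, with a difference of 0.04 ± 0.13 (95% interval -0.26 to 0.35).

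Fosl1, which encodes Fra-1 and is best known from epithelial and tumour cells, was below the array medians at both probe sets. At 1417487_at its levels ran from 5.32 to 5.46 in HtrA2 KO and from 5.43 to 5.62 in WT, with a difference of -0.13 ± 0.08 (95% interval -0.32 to 0.06). At 1417488_at they ran from 5.05 to 5.51 in HtrA2 KO and from 4.92 to 5.12 in WT, with a difference of 0.22 ± 0.13 (95% interval -0.09 to 0.53). The probe sets pointed in opposite directions, and the groups overlapped at both. The difference at 1417488_at was 0.069 without HtrA2 KO replicate 2, and that at 1417487_at was -0.075 without WT replicate 1.

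Among the members, Junb followed Fos most closely, with a Pearson r of 0.96 over the 6 arrays and 0.91 without HtrA2 KO replicate 3. Jun at 1417409_at had r = 0.76 with Fos, Fosb had 0.38, and Jund at 1449117_at had -0.37, which became 0.54 without HtrA2 KO replicate 3. These values describe 6 arrays that share the group difference and a normalization, and carry no test.

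**Figure D3:**
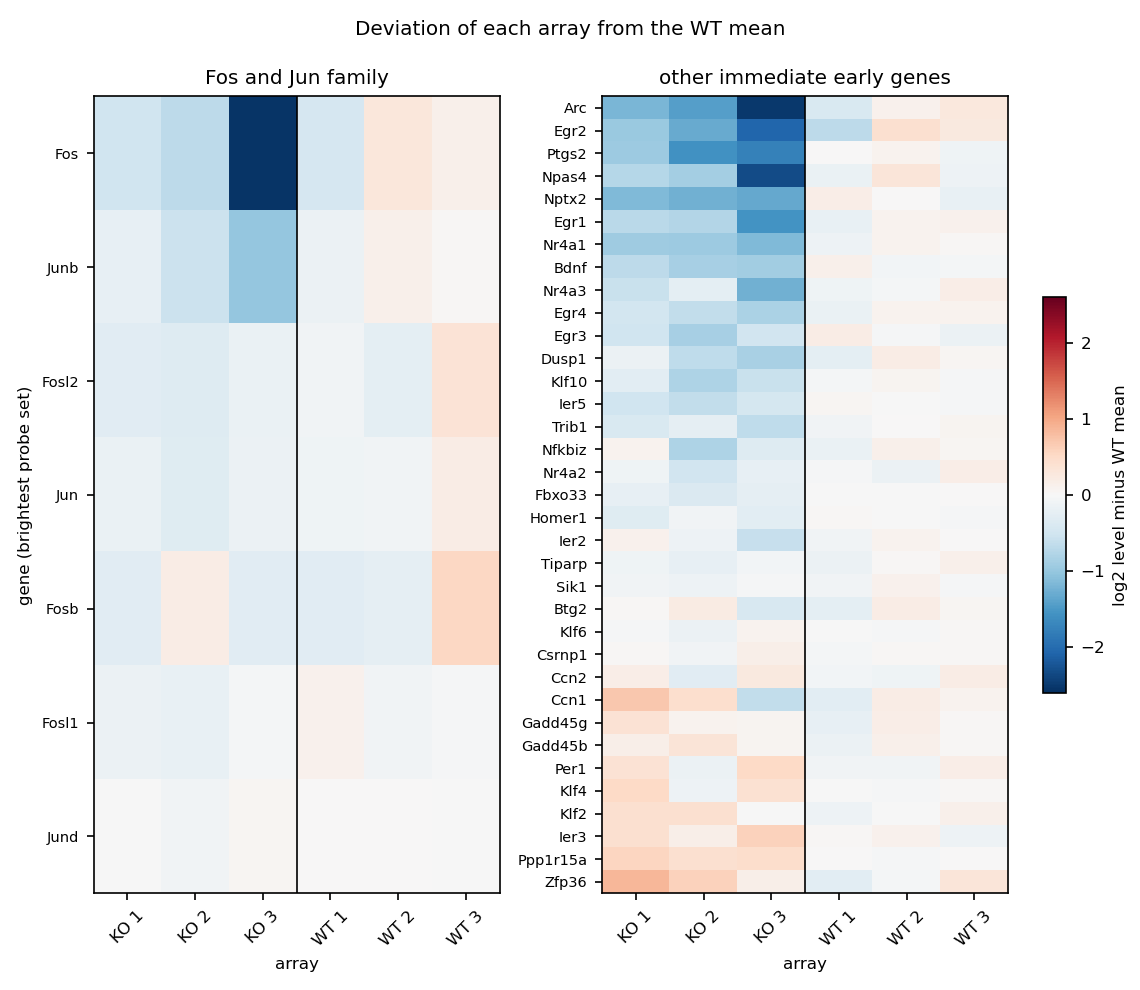
Deviation of each array (columns, HtrA2 KO left of WT) from the WT mean, on the log2 scale, for the 7 family members (left) and 35 other immediate early genes (right), each at its probe set with the highest mean, ordered by difference. The column of HtrA2 KO replicate 3 is the deepest blue for Fos (-2.54), Junb (-1.01), Arc, Npas4 and Egr1, and genes at the bottom of the right panel, such as Ppp1r15a, lay higher in HtrA2 KO.

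Immediate early genes outside the family were lower in HtrA2 KO more often than higher. Of 35 measured genes 8 had a probe set called lower, 1 had one called higher and 26 had none, where 1.67% of all genes had a probe set called lower and 1.64% one called higher. The median difference at the probe set with the highest mean was -0.27, against 0.018 for all genes, and the groups were separate and lower in HtrA2 KO at 16 of the 35, where 12.8% of all genes were. They were separate and higher in HtrA2 KO at 2, where 11.6% of all probe sets were. Lower immediate early genes were already known from earlier results of these data, so the count is no independent evidence. Homer1, a scaffold of the postsynaptic density with a short activity-induced form, fell at 3 of its 6 probe sets, with differences of -2.27 ± 0.17, -1.39 ± 0.23 and -0.41 ± 0.07 (limma adjusted p = 0.00249, 0.0301 and 0.0349). Its probe set of highest mean was not called and differed by -0.22 ± 0.08, with all HtrA2 KO arrays below all WT arrays. Nptx2, a secreted pentraxin of excitatory synapses, fell by 1.24 ± 0.11 at 1420720_at (limma adjusted p = 0.0036). It was not called at 1449960_at (-0.83 ± 0.18, limma adjusted p = 0.0657). The orphan nuclear receptor Nr4a1 fell by 1.003 ± 0.10 (limma adjusted p = 0.00528) and the neurotrophin Bdnf by 0.81 ± 0.09 at 1422168_a_at (limma adjusted p = 0.0115). Bdnf was not called at 1422169_a_at (-0.69 ± 0.14, limma adjusted p = 0.0584). The 1 gene called higher was Ppp1r15a, which encodes GADD34, a phosphatase subunit of the stress response, at 0.47 ± 0.07 (limma adjusted p = 0.0265). The count of called genes in this list was 3 without HtrA2 KO replicate 3 or without any 1 WT array, and 16 without HtrA2 KO replicate 2, the array farthest from its group.

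Among genes chosen after their values were seen, Arc, Npas4 and Egr1 had the shape of Fos. Arc, a regulator of AMPA receptor uptake, had levels of 8.57, 8.33 and 7.24 in HtrA2 KO replicates 1 to 3, against 9.36, 9.87 and 10.02 in WT replicates 1 to 3. Npas4, an activity-dependent factor of neurons, had 7.53, 7.39 and 5.95 in HtrA2 KO replicates 1 to 3, against 8.09, 8.58 and 8.15 in WT replicates 1 to 3. Egr1, a zinc finger factor, had 11.87, 11.79 and 11.01 in HtrA2 KO replicates 1 to 3, against 12.37, 12.65 and 12.67 in WT replicates 1 to 3. In each of them HtrA2 KO replicate 3 was the lowest array of all and WT replicate 1 the lowest WT array. The Xist-high array was the lowest in both groups at 16 of the 35 immediate early genes (45.7%) and at 3 of the 7 family members, Fos, Fosb and Junb, against 12.8% of all genes. The pattern had already been seen at Fos and Junb, so the family count is no independent evidence. Fosb was dim, and HtrA2 KO replicate 3 was barely its lowest HtrA2 KO array, at 5.082 against 5.085 in replicate 1. For Fosb the Xist-high arrays of both groups were listed at the same level, 5.08. The mean deviation of the list from WT was -0.18, -0.38 and -0.54 in HtrA2 KO replicates 1, 2 and 3, against -0.11, 0.06 and 0.05 in WT replicates 1, 2 and 3.

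**Figure D4:**
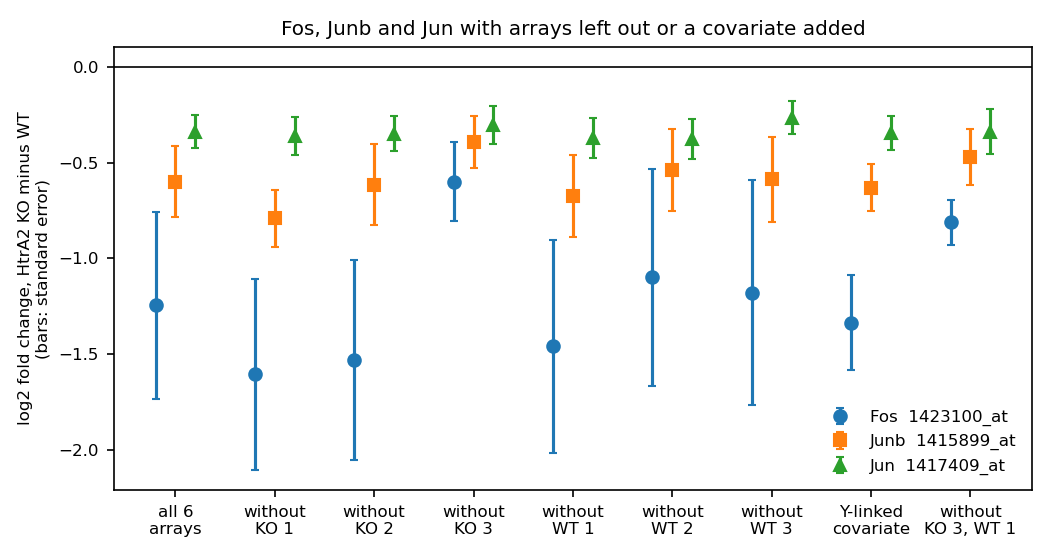
Log2 fold change, HtrA2 KO minus WT, of Fos, Junb and Jun 1417409_at over all 6 arrays, with each array left out, with the Y-linked (Eif2s3y) level added and without both Xist-high arrays; bars are standard errors. All values lie below 0; Fos ranges from -1.61 to -0.60 over the omissions of 1 array, while Jun stays between -0.37 and -0.26.

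The genes most like Fos over the 6 arrays, by Pearson r among 20435 probe sets with a single symbol and a mean above the median of the table, were Bbs7 (r = 0.998), Slit2 (0.995), Lrch1 (0.995), Usp10 (0.993) and Klhl17 (0.992). The genes most like Junb were Gpr85 (0.995), Atp8a1 (0.995), Tspan6 (0.994), Nup50 (0.992) and Icam5 (0.992). With 6 points and this many candidates such values are a ranking only. None of these genes is on the list of immediate early genes. Their differences were smaller than that of Fos, for instance Bbs7 had levels of 7.84, 7.83 and 7.42 in HtrA2 KO replicates 1 to 3, against 7.88, 8.02 and 8.01 in WT replicates 1 to 3.

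Among the leucine zipper proteins that pair with Fos or Jun proteins or bind related sites, 2 of 15 measured genes rose, 0 fell and 13 had no called probe set, with a median difference of 0.06. Among all genes, 1.64% had a probe set called higher and 1.67% one called lower. At the probe set with the highest mean, 6 of the 15 were separate and higher in HtrA2 KO, where 11.6% of all probe sets were. There 1 was separate and lower, where 12.8% of all genes were. Ddit3, which encodes CHOP, rose by 1.86 ± 0.07 at 1417516_at (limma adjusted p = 7.63e-05), with 10.72, 10.71 and 10.64 in HtrA2 KO replicates 1 to 3, against 8.82, 8.85 and 8.83 in WT replicates 1 to 3. Its other probe set differed by -0.0099 ± 0.12. Atf3, a stress-induced partner of Jun, rose by 0.52 ± 0.09 (limma adjusted p = 0.0317), with 5.45, 5.73 and 5.62 in HtrA2 KO replicates 1 to 3, against 5.10, 5.04 and 5.08 in WT replicates 1 to 3. Atf3 was separate between the groups but lay below the array medians in all 6 arrays.

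Of the factors and coactivators that act at Fos and Jun promoters, 1 of 17 measured genes fell and 0 rose, with a median difference of 0.10. The shares over all genes were 1.67% called lower and 1.64% called higher. The gene was Crem, a relative of CREB with an inducible repressor form, which fell by 0.64 ± 0.11 at 1 of its 4 probe sets (limma adjusted p = 0.0376). SRF itself, encoded by Srf, differed by 0.10 ± 0.11, and Creb1 by 0.13 ± 0.08, both at the probe set with the highest mean, and both were picked for mention after their values were seen. In this list 10 of the 17 genes had their lowest level of all 6 arrays in WT replicate 1, against 4 of the 35 immediate early genes. The share of all genes lowest on that array was not counted, so whether 10 of 17 is unusual is not known here. Such counts also carry the difference between the groups, with list medians of 0.10 here and -0.27 for the immediate early genes.

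Of the kinases that carry growth factor and calcium signals to the Fos promoter, 13 of 21 listed genes were measured by a probe set of their own, and 1 fell and 1 rose. Over all genes, 1.67% had a probe set called lower and 1.64% one called higher. Rps6ka3, which encodes RSK2, a kinase downstream of ERK that phosphorylates CREB and Fos, fell by 0.49 ± 0.08 at 1455206_at (limma adjusted p = 0.0263). It was not called at 1427299_at (-0.23 ± 0.09, limma adjusted p = 0.254) or at 1452383_at (-0.36 ± 0.24, limma adjusted p = 0.52). At 1455206_at its levels were 9.52, 9.34 and 9.41 in HtrA2 KO replicates 1 to 3, against 9.91, 9.90 and 9.93 in WT replicates 1 to 3. Rps6ka5, which encodes the related kinase MSK1, rose by 0.43 ± 0.08 at 1 of its 3 probe sets (limma adjusted p = 0.0421). The median difference of the list was -0.05.

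Of the JNK pathway 0 of 17 measured genes were called, with a median difference of -0.02. Mapk8ip1, the scaffold JIP1, differed by -0.42 ± 0.08 at 1 of its 2 probe sets (limma adjusted p = 0.0503), and Map3k5, the kinase ASK1, by -0.31 ± 0.07 (limma adjusted p = 0.0861). Of the proteins that degrade or restrain Jun and Fos, 0 of 12 were called, with a median of -0.04. Over all genes 1.67% were called lower and 1.64% higher, so 0 calls in lists this short is near the share. Fbxw7, the ligase subunit that marks phosphorylated Jun for degradation, differed by -0.33 ± 0.07 (limma adjusted p = 0.0751), and Cops5, a Jun-binding subunit of the COP9 signalosome, by 0.19 ± 0.08 at its dim probe set (limma adjusted p = 0.270) and by 0.05 ± 0.07 at the other.

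Genes described elsewhere as AP-1 targets went both ways, with a median difference of 0.0011. Of 28 measured genes 1 fell and 0 rose, where 1.67% of all genes had a probe set called lower and 1.64% one called higher. The groups were separate and lower in HtrA2 KO at 7, where 12.8% of all genes were. They were separate and higher at 4, where 11.6% of all probe sets were. The gene was Ccnd1, cyclin D1, which fell by 0.66 ± 0.11 and 0.70 ± 0.12 at 2 of its 3 probe sets (limma adjusted p = 0.0334 and 0.0351) and differed by -0.42 ± 0.14 at the third. At 1417419_at it had 8.02, 8.02 and 7.68 in HtrA2 KO replicates 1 to 3, against 8.45, 8.60 and 8.66 in WT replicates 1 to 3. HtrA2 KO replicate 3 and WT replicate 1 were the lowest arrays of their groups there too. Many of the listed targets were described in other tissues, so the count does not measure AP-1 activity in cortex.

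Cell type markers moved beside these values. Of 13 neuronal markers 2 fell, Nefm by 0.47 ± 0.07 and Neurod6 by 0.66 ± 0.11, and the mean level of the list was 11.73 to 11.80 in HtrA2 KO and 11.96 to 11.98 in WT. At the probe set with the highest mean, 9 of the 13 were separate and lower in HtrA2 KO and 0 separate and higher, with a median of -0.18. Of 9 microglial markers 3 fell, among them Itgam by 0.72 ± 0.12, and of 10 astrocyte markers 3 fell and 1, Gfap, rose by 0.63 ± 0.09. The groups were separate and lower in HtrA2 KO at 4 microglial and 6 astrocyte markers, and separate and higher at 1 and 2 in the same order. Of 9 oligodendrocyte markers 1 fell, Olig2, by 0.69 ± 0.12, but all 9 had a negative difference at the probe set with the highest mean, 5 were separate and lower in HtrA2 KO, and the median of -0.29 was the lowest of the 14 lists. Of 6 blood markers 1 fell, Alas2, by 0.87 ± 0.16, and 5 had a negative difference. Markers of vessels and meninges lay the other way. Of these 11 markers 0 were called, 4 were separate and higher in HtrA2 KO and 0 separate and lower. Only 1 had a negative difference, and the median of 0.26 was the highest of the 14 lists. Of 11 markers of other brain regions 0 were called, with a median of 0.03. The called counts stand beside the 1.67% of all genes called lower and the 1.64% called higher. The separate and lower counts stand beside the 12.8% of all genes that were separate and lower. The separate and higher counts stand beside the 11.6% of all probe sets that were separate and higher. The part of these markers in the values of the Fos and Jun family was not tested.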

How the data were processed

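Cortex RNA of 3 HtrA2 KO and 3 WT arrays was measured. The deposited values are log2 expression levels per probe set that the authors made with RMA, per the submitters' processing notes. RMA corrects background, quantile-normalizes and summarises probes, and no version was found. That the scale is log2 was read from the range of the values. Of 45101 probe sets, 64 controls were left out. The platform annotation gave 34945 probe sets 1 symbol, 932 several and 9160 none, and the symbols of 34741 probe sets were found in RefSeq. The values were fitted as deposited, without further scaling or filter, with limma 3.58.1 (lmFit, eBayes) in R 4.3.3, on genotype alone, with adjusted p-values (Benjamini-Hochberg) over 45037 probe sets, after a test on simulated data. The number of arrays limits the precision. Different probe sets of a gene were kept apart. Lists were described by their genes called at any probe set and by the median at the probe set with the highest mean. Genes named are all members, up to 4 called genes per pathway list (2 per marker list) with the smallest p or the 2 smallest where none was called, and the 5 genes most like Fos and Junb. Outside this rule, Ppp1r15a, Arc, Npas4, Egr1, Srf and Creb1 were named after their values were seen. The members and lists were chosen with earlier results of these data known. Alternatives were another filter, limma-trend, quantile normalization, median centring, array weights, gene means, other thresholds, a replicate block and leaving out each array. The Y-linked covariate and the fit without both Xist-high arrays were chosen after seeing the data.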

Additional observations from a re-analysis of the deposited data

How the results depend on the processing

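No member probe set was called under any alternative but array weights, which called 1, Jun 1417409_at (-0.31, limma adjusted p = 0.0454). Over all probe sets 796 were called, and 1806 after a filter on dim probe sets, 1770 with limma-trend, 4205 with array weights, 154 with the replicate block, 79 and 2035 at adjusted p under 0.01 and 0.10, 445 with the Y-linked covariate, 3 without both Xist-high arrays and 65 to 3037 with 1 array left out. In the 7 pathway lists 15 genes were called, and in the same order 26, 29, 45, 6, 4, 29, 13, 1 and 4 to 34, with 23 after another quantile normalization. Same-numbered arrays did not deviate together (r = -0.20, -0.041 and -0.17). With 3 arrays in each group these values cannot decide whether the numbers pair the samples, and the labels do not say. With the replicate block Fos differed by -1.25 (limma adjusted p = 0.267). With 1 array left out, Fos ranged from -1.61 to -0.60, Junb from -0.79 to -0.39 and Jun 1417409_at from -0.37 to -0.26. Fosl1 ranged from -0.17 to -0.075 at 1417487_at and from 0.069 to 0.30 at 1417488_at. Members with differences near 0 changed sign. Fosb ranged from -0.30 to 0.13, Fosl2 1422931_at from -0.083 to 0.14, Jund 1449117_at from -0.050 to 0.025 and Jund 1440265_at from -0.069 to 0.10. Jund 1440265_at was also -0.0031 after another quantile normalization, -0.032 with array weights and -0.0064 as a gene mean, and Jund 1449117_at was 0.0096 with array weights. The gene means of Fosl1 and Fosl2 were 0.044 and -0.11, against -0.13 at 1417487_at and 0.04 at 1422931_at. The causes were not tested. Dim probe sets such as Fosb and Fosl1 limit what can be seen.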
